A study of Homo sapiens with 12 samples.

Results

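Homologous recombination copies lost sequence from the sister chromatid into a broken chromosome, and the Fanconi anaemia pathway frees DNA whose strands have been crosslinked. Transcripts of 38 genes of these pathways were followed in 2 human ovarian cancer cell lines treated with BAY-850. The genes are a list of names, drawn up with earlier results of these data known, and all 38 were found among the 26475 gene symbols of the deposited table. The compound BAY-850 occupies the bromodomain of ATAD2, a chromatin protein with an ATPase domain, and was used in the study to ask what ATAD2 does in ovarian cancer cells. PA-1 (grown in DMEM) and SK-OV-3 (grown in RPMI), both with 10% fetal bovine serum, were kept for 48 hours with BAY-850 at 5 µM, or received DMSO as the vehicle. Each of the 4 groups has 3 biological replicates, which gives 12 RNA libraries from 1 dose and 1 time point. Line and culture medium cannot be told apart, and the labels do not say whether the replicates were cultured on separate days.

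As background, repair by recombination begins when the MRE11-RAD50-NBN complex and its partner RBBP8 trim the broken end, after which EXO1 and the helicase BLM lengthen the single strand. BRCA1 with BARD1, PALB2 and BRCA2 then load a recombinase onto that strand, and XRCC2, XRCC3 and related proteins help to keep that filament in place. In the Fanconi anaemia pathway a core complex, whose ubiquitin ligase is FANCL, marks the pair FANCD2 and FANCI, and this marked pair calls nucleases to the crosslink. The kinases ATM and ATR, with CHEK1, CHEK2, TOPBP1 and CLSPN, halt the cell cycle while repair goes on. Tumours that lack BRCA1 or BRCA2 repair breaks poorly, which is why the pathway matters in ovarian cancer. Many of these genes are known to be transcribed mainly in cells that are copying their DNA.

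The start regions of the genes with the smallest p in either line are shown first, because the text returns to their letters below. Sequences are from a set of RefSeq promoters on build GRCh38.p14, in which 34 of the 38 genes matched an entry. Where a gene had several entries, the first was used, here and in the counts of letters below. NBN, WRN, RAD54B and FANCI had none in this set, which says nothing of whether RefSeq itself lists them. Each run covers the 100 bases before the annotated start and the 30 bases after it, read 5′ to 3′ along the gene. Capitals mark E2F-type letters (TTTCCCGC, TTTGGCGC, TTTCGCGC or TTTGCCGC), the NF-Y letters CCAAT and the CHR letters TTTGAA or TTCGAA, on either strand.
CLSPN, chr1:35769949-35770078, minus strand: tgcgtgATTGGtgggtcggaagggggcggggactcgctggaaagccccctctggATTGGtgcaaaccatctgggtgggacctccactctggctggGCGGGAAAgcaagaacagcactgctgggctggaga
FANCL, chr2:58241296-58241425, minus strand: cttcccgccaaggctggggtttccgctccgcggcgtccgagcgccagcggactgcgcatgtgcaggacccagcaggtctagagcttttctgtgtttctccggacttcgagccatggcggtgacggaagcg
CHEK1, chr11:125626129-125626258, plus strand: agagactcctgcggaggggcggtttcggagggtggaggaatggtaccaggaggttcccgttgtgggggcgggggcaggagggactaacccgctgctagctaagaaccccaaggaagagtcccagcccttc
FANCD2, chr3:10026337-10026466, plus strand: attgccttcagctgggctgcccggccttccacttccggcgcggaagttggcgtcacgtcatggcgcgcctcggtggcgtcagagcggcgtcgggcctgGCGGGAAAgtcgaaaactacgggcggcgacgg
BRIP1, chr17:61863499-61863628, minus strand: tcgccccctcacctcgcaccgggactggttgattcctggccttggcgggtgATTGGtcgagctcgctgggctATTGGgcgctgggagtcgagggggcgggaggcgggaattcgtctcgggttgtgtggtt
EXO1, chr1:241848104-241848233, plus strand: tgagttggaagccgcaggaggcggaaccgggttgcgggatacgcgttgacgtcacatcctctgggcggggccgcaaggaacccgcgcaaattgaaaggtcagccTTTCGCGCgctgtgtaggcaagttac
TOPBP1 and XRCC2 are added to these 6, chosen after their letters were seen.
TOPBP1, chr3:133661912-133662041, minus strand: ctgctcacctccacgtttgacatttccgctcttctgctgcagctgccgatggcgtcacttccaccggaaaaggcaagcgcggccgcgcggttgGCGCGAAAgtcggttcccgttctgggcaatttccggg
XRCC2, chr7:152676112-152676241, minus strand: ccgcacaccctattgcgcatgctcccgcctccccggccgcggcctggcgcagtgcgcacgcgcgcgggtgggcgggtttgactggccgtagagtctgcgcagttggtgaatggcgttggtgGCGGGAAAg

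An E2F-type match lay at or near the start in CLSPN, FANCD2, TOPBP1, EXO1 and XRCC2. The printed runs of FANCL, CHEK1 and BRIP1 held none. The first base of the match was 5 bases before the start in CLSPN, 2 before it in FANCD2 and 7 before it in TOPBP1. It was base 5 after the start in EXO1 and base 22 in XRCC2. Over the longer window of 250 bases before the start to 50 after, 7 of the 34 genes with an entry held an E2F-type match, which is 20.6%, and the share over 15843 protein-coding promoters was 4.4%. The holders were CLSPN, FANCD2, TOPBP1, EXO1, XRCC2, FANCA and FANCC. The other RefSeq entry of EXO1 and that of FANCC held no E2F-type match. The other entry of BRCA1 held NF-Y letters, which its first entry lacks. NF-Y letters stood in 14 of the 34 (41.2%, against 36.4% of coding promoters) and CHR letters in 3 (8.8%, against 13.5%). With the 250 bases before the start alone, only FANCA and FANCC of these 34 kept an E2F-type match. That is 5.9%, against 3.7% of coding promoters. The matches in CLSPN, FANCD2 and TOPBP1 begin before the annotated start and run past it, so the shorter window cuts through them. The matches in EXO1 and XRCC2 lie after the start. A match of letters is a description and does not show a bound site.

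The labelled lines were checked against their markers. SOX2, LIN28A and LIN28B were high in PA-1 and at or near 0 in SK-OV-3, POU5F1 was at 368 to 468 CPM in PA-1 and 6.06 to 8.79 CPM in SK-OV-3, and ERBB2, KRT7, KRT19, PAX8 and EPCAM were high in SK-OV-3. With DMSO, SALL4 was at 19.5 to 22.9 CPM in PA-1 and 0.129 to 0.315 CPM in SK-OV-3, and DPPA4 at 0.977 to 2.42 CPM and 0. L1TD1 was near 0 in both lines. CDH1 was at 1.18 to 2.77 CPM in PA-1 and 4.98 to 6.65 CPM in SK-OV-3 with DMSO, and MUC16 stayed at or below 1.01 CPM in SK-OV-3. KRT8 and KRT18 were high in both. KRT18, listed for SK-OV-3, was higher in PA-1 with DMSO, at 325 to 342 CPM against 256 to 281 CPM. Summed over the 8 PA-1 markers, the level in SK-OV-3 was 36.3 to 40.5 CPM with DMSO and 78.7 to 81.7 CPM with BAY-850, most of it DNMT3B, while the 9 SK-OV-3 markers summed to 4353 to 4631 CPM and 3207 to 3688 CPM. Total counts ran from 34544505 to 51840233 per library, and genes of ribosomal RNA took 7.94% to 16.9% of them. SK-OV-3 BAY-850 replicate 3 stood apart, with the highest total but 15634 genes with a count against 17437 to 18440 in the others. The number of the 38 genes called lower in SK-OV-3 is therefore also given without it. Counts of signs, of overlap and of the other gene lists in SK-OV-3 include it. Levels are given in CPM (counts scaled to a common library total, with TMM factors over all 12 libraries), and a gene is called when its Benjamini-Hochberg adjusted p in edgeR's quasi-likelihood test, over all genes tested, is under 0.05. All 38 genes passed the filter on low counts in every comparison.

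In SK-OV-3, 13 of the 38 genes fell with BAY-850 and none rose. The background share of genes called lower among the 15348 tested was 9.56%, and 10.8% were called higher. The genes that fell span the route from checkpoint to repair, with CLSPN, CHEK1, TOPBP1 and ATM among the checkpoint proteins, FANCD2, FANCI and FANCA in the Fanconi anaemia pathway, NBN, EXO1 and BLM in end trimming, and BRIP1, XRCC2 and XRCC3 downstream. In PA-1 only 2 genes fell, FANCL and PALB2, and none rose, against background shares of 2.48% lower and 4.65% higher among 15212 genes. Of the genes called in PA-1, 34.8% were lower, and 49.6% were when libraries were scaled by size alone. The median log2 fold change of the 38 genes was -0.28 in SK-OV-3, where the median of all genes was -0.0091, and 0.0081 in PA-1, where it was -0.0019. In SK-OV-3 the fold change was below 0 for 33 genes and above 0 for 5, while in PA-1 the split was 18 and 20. All 3 BAY-850 libraries lay below all 3 DMSO libraries for 20 genes in SK-OV-3 and above them for 3, where 20.0% and 18.6% of all genes tested did so. In PA-1 the corresponding counts were 4 and 3, against 12.7% and 14.7%. In bulk RNA, fewer cells of a kind and less RNA per cell cannot be told apart.

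**Figure D1:**
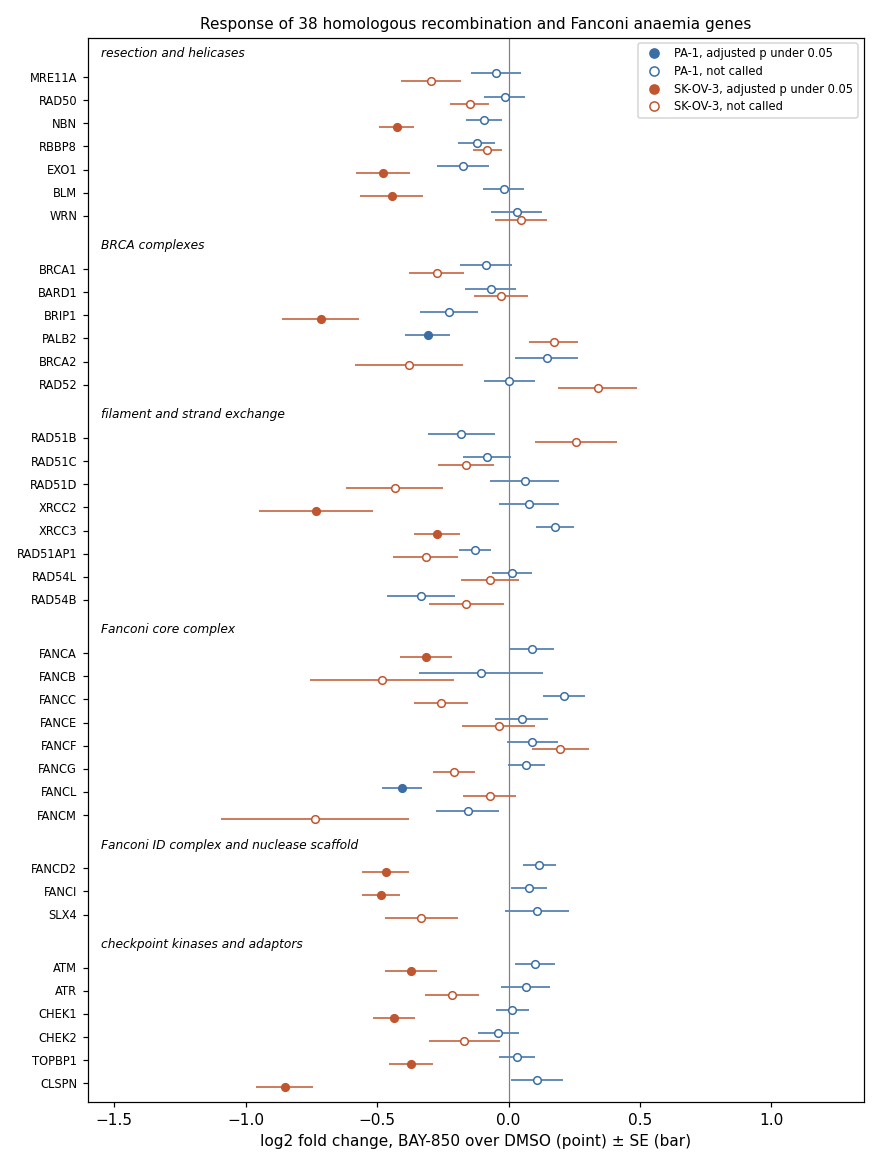
Log2 fold change (x axis, BAY-850 over DMSO) with its SE for each of the 38 genes (y axis, grouped by role) in PA-1 (blue) and SK-OV-3 (orange), filled where the adjusted p is under 0.05. The filled SK-OV-3 points lie between -0.85 and -0.27, and the filled points of PA-1 are FANCL and PALB2 alone.

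In the checkpoint group 4 of 6 genes fell in SK-OV-3, with a group median log2 fold change of -0.37. CLSPN encodes claspin, the adaptor that lets ATR activate CHEK1 (chr1:35720218-35769967, minus strand, GENCODE v29 on hg38, as for the other positions). Its level in SK-OV-3 was 21.0, 21.2 and 22.0 CPM with DMSO and 11.3, 11.003 and 13.1 CPM with BAY-850, so the groups were far apart. The log2 fold change was -0.85 ± 0.11 (SE), with an adjusted p of 0.000271, the smallest among the 38 genes. In PA-1 the CLSPN level lay between 15.5 and 19.1 CPM in all 6 libraries and was not called.

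CHEK1 encodes the kinase that slows the cell cycle when replication stalls (chr11:125625136-125676255, plus strand). In SK-OV-3 it measured 37.2, 39.8 and 37.5 CPM with DMSO against 28.03, 30.3 and 26.0 CPM with BAY-850. That is a log2 fold change of -0.44 ± 0.079 (SE) with an adjusted p of 0.0026, and the groups did not overlap. TOPBP1, which switches on ATR at stalled forks, fell from 64.5, 74.6 and 76.7 CPM to 59.3, 51.1 and 55.6 CPM. The log2 fold change of TOPBP1 was -0.37 ± 0.083 (SE), with an adjusted p of 0.00873. ATM, the kinase that responds to double-strand breaks, went from 31.5, 36.7 and 40.3 CPM to 28.4, 29.7 and 25.5 CPM, also without overlap. The log2 fold change of ATM was -0.37 ± 0.099 (SE), with an adjusted p of 0.0213. ATR (-0.21 on the log2 scale, adjusted p 0.169) and CHEK2 (-0.17, adjusted p 0.426) were not called, and their libraries overlapped. In PA-1 none of the 6 was called, and their fold changes lay between -0.04 and 0.11 on the log2 scale.

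FANCD2 and FANCI, the pair that the Fanconi core complex marks with ubiquitin, fell together in SK-OV-3. FANCD2 (chr3:10026414-10101930, plus strand) had 35.3, 35.1 and 37.7 CPM with DMSO and 25.6, 23.9 and 28.3 CPM with BAY-850. This is a log2 fold change of -0.47 ± 0.09 (SE), with an adjusted p of 0.00377. FANCI (chr15:89243949-89317261, plus strand) went from 72.7, 72.0 and 69.0 CPM to 52.9, 54.0 and 45.4 CPM. That is a log2 fold change of -0.48 ± 0.071 (SE), with an adjusted p of 0.000641, and neither gene's groups overlapped. SLX4, the scaffold of nucleases that cut beside a crosslink, had 10.49 to 11.7 CPM with DMSO and 7.64 to 10.2 CPM with BAY-850 and was not called (-0.33 on the log2 scale, adjusted p 0.116). In PA-1 all 3 fold changes were positive, from 0.08 to 0.12 on the log2 scale, and none was called. FANCI had a count that was not whole in all 12 libraries, which means that RSEM divided some of its reads, and 5.9% of its exon bases overlap exons of POLG on the other strand.

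Of the 8 genes of the Fanconi core complex, FANCA alone was called in SK-OV-3 and FANCL alone in PA-1. FANCA, a subunit that is often mutated in Fanconi anaemia, had 24.9, 26.8 and 26.7 CPM in SK-OV-3 with DMSO and 21.7, 23.1 and 18.1 CPM with BAY-850. The log2 fold change was -0.31 ± 0.099 (SE), with an adjusted p of 0.0438. FANCA counts were not whole in 11 libraries, and ZNF276, on the other strand, shares 23.6% of its exon bases. FANCL, the ubiquitin ligase (chr2:58159243-58241372, minus strand), moved in the other line. In PA-1 it went from 79.95, 74.9 and 66.0 CPM with DMSO to 54.6, 52.8 and 59.7 CPM with BAY-850, without overlap. Its log2 fold change there was -0.40 ± 0.076 (SE), with an adjusted p of 0.0054. In SK-OV-3 its level was lower at the outset, 26.2 to 33.8 CPM with DMSO, and 27.2 to 28.3 CPM with BAY-850 (-0.07 on the log2 scale, adjusted p 0.671). FANCL counts were not whole in all 12 libraries, and 18.7% of its exon bases overlap VRK2 on the other strand.

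FANCC, another core subunit, was called in neither line, but its direction differed between them. It had 26.1, 23.9 and 23.5 CPM in PA-1 with DMSO and 26.9, 27.6 and 30.8 CPM with BAY-850. In SK-OV-3 it had 24.7, 22.1 and 24.4 CPM with DMSO and 20.8, 17.5 and 20.8 CPM with BAY-850. Neither line's groups overlapped, and the log2 fold changes were 0.21 ± 0.081 (SE, adjusted p 0.127) and -0.26 ± 0.103 (SE, adjusted p 0.105). FANCG gave -0.21 on the log2 scale in SK-OV-3 (adjusted p 0.0963), FANCE -0.04, FANCF 0.20 and FANCB -0.48, and none was called. FANCM, the translocase that brings the complex to DNA, had one of the lowest levels, 4.63 to 5.71 CPM with DMSO and 1.32 to 4.70 CPM with BAY-850 in SK-OV-3, where the lowest value belongs to replicate 3. Its log2 fold change of -0.73 ± 0.358 (SE) was not called (adjusted p 0.178).

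Among the 7 genes of end trimming and helicases, NBN, EXO1 and BLM fell in SK-OV-3. NBN, the subunit that links the trimming complex to ATM, had 83.7, 90.4 and 96.5 CPM with DMSO and 65.5, 66.5 and 68.4 CPM with BAY-850. BAY-850 thus changed NBN by -0.43 ± 0.067 (SE) on the log2 scale, with an adjusted p of 0.0011. EXO1, the exonuclease that lengthens the single strand (chr1:241847967-241895148, plus strand), went from 16.8, 18.5 and 19.5 CPM to 12.9, 13.3 and 13.0 CPM. This gave -0.48 ± 0.103 (SE) on the log2 scale, with an adjusted p of 0.00737. BLM, the helicase mutated in Bloom syndrome, had 15.9, 16.1 and 15.5 CPM with DMSO against 11.9, 10.1 and 12.7 CPM with BAY-850. Its log2 fold change was -0.44 ± 0.12 (SE), with an adjusted p of 0.0231. The groups did not overlap for any of the 3. The partners of NBN were not called in SK-OV-3, with -0.30 on the log2 scale for MRE11A (adjusted p 0.0948) and -0.15 for RAD50 (adjusted p 0.193). RBBP8 (-0.08) and WRN (0.05) were not called either. In PA-1 the 7 log2 fold changes lay between -0.17 and 0.03, and none was called.

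The BRCA group was mixed. BRIP1, the helicase that binds BRCA1 (chr17:61681266-61863521, minus strand), fell in SK-OV-3 from 14.6, 20.3 and 16.96 CPM to 9.52, 10.1 and 11.8 CPM. BRIP1 gave a log2 fold change of -0.71 ± 0.146 (SE), with an adjusted p of 0.00551. BRCA1 had 30.5, 34.7 and 36.5 CPM with DMSO and 27.7, 24.9 and 30.9 CPM with BAY-850, and the groups overlapped by a narrow margin. Its log2 fold change of -0.27 ± 0.105 (SE) was not called (adjusted p 0.091). BRCA2 overlapped too, with 6.86, 9.49 and 10.2 CPM against 5.78, 5.98 and 8.51 CPM, and its -0.38 ± 0.205 (SE) was not called (adjusted p 0.228). Both genes were called lower in SK-OV-3 in 1 of the 6 fits that leave out a library, that without BAY-850 replicate 3. In that fit 11.8% of all genes tested were called lower, against 9.56% with all libraries. In PA-1, BRCA1 lay between 22.7 and 31.2 CPM and BRCA2 between 10.48 and 13.9 CPM over all 6 libraries, with log2 fold changes of -0.09 (adjusted p 0.648) and 0.14 (adjusted p 0.501). Without PA-1 BAY-850 replicate 3 the value for BRCA1 was 0.023, on the other side of 0.

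PALB2, which joins BRCA1 to BRCA2 (chr16:23603160-23641310, minus strand), fell in PA-1 and had higher values with BAY-850 in SK-OV-3. In PA-1 it went from 24.3, 22.8 and 21.3 CPM to 19.3, 18.7 and 17.5 CPM, a log2 fold change of -0.31 ± 0.086 (SE) with an adjusted p of 0.0438. In SK-OV-3 it went from 17.9, 17.8 and 19.3 CPM to 22.1, 20.1 and 19.5 CPM, which gave 0.17 ± 0.094 (SE) and was not called (adjusted p 0.234). The groups did not overlap in either line. RAD52, which anneals single strands, measured 6.39 to 8.71 CPM with DMSO and 9.01 to 10.1 CPM with BAY-850 in SK-OV-3, and its 0.34 on the log2 scale was not called (adjusted p 0.141). BARD1, the partner of BRCA1, had a log2 fold change of -0.07 in PA-1 and -0.03 in SK-OV-3.

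Of the 8 genes of the filament and strand exchange, 2 fell in SK-OV-3. XRCC2 (chr7:152644779-152676165, minus strand) had 4.10, 5.49 and 6.24 CPM with DMSO and 3.00, 3.37 and 3.11 CPM with BAY-850. XRCC2 changed by -0.73 ± 0.217 (SE) on the log2 scale, with an adjusted p of 0.0344. XRCC3 (chr14:103697609-103715504, minus strand) went from 33.3, 30.3 and 29.4 CPM to 26.6, 27.0 and 23.3 CPM, which gave -0.27 ± 0.087 (SE) and an adjusted p of 0.0465. KLC1, on the other strand, overlaps 76.7% of the exon bases of XRCC3, so reads from these genes may not be separated. XRCC3 counts were whole in all 12 libraries. The labels describe strand-specific libraries, but whether strand was used in the counting is not given in the sources used here. RAD51B (0.26 on the log2 scale), RAD51C (-0.16), RAD51D (-0.43), RAD51AP1 (-0.32), RAD54L (-0.07) and RAD54B (-0.16) were not called in SK-OV-3, and none of the 8 was called in PA-1. RAD51D counts were not whole in all 12 libraries and those of RAD54B in 9, and FSBP, on the same strand, overlaps 59.1% of the exon bases of RAD54B.

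**Figure D2:**
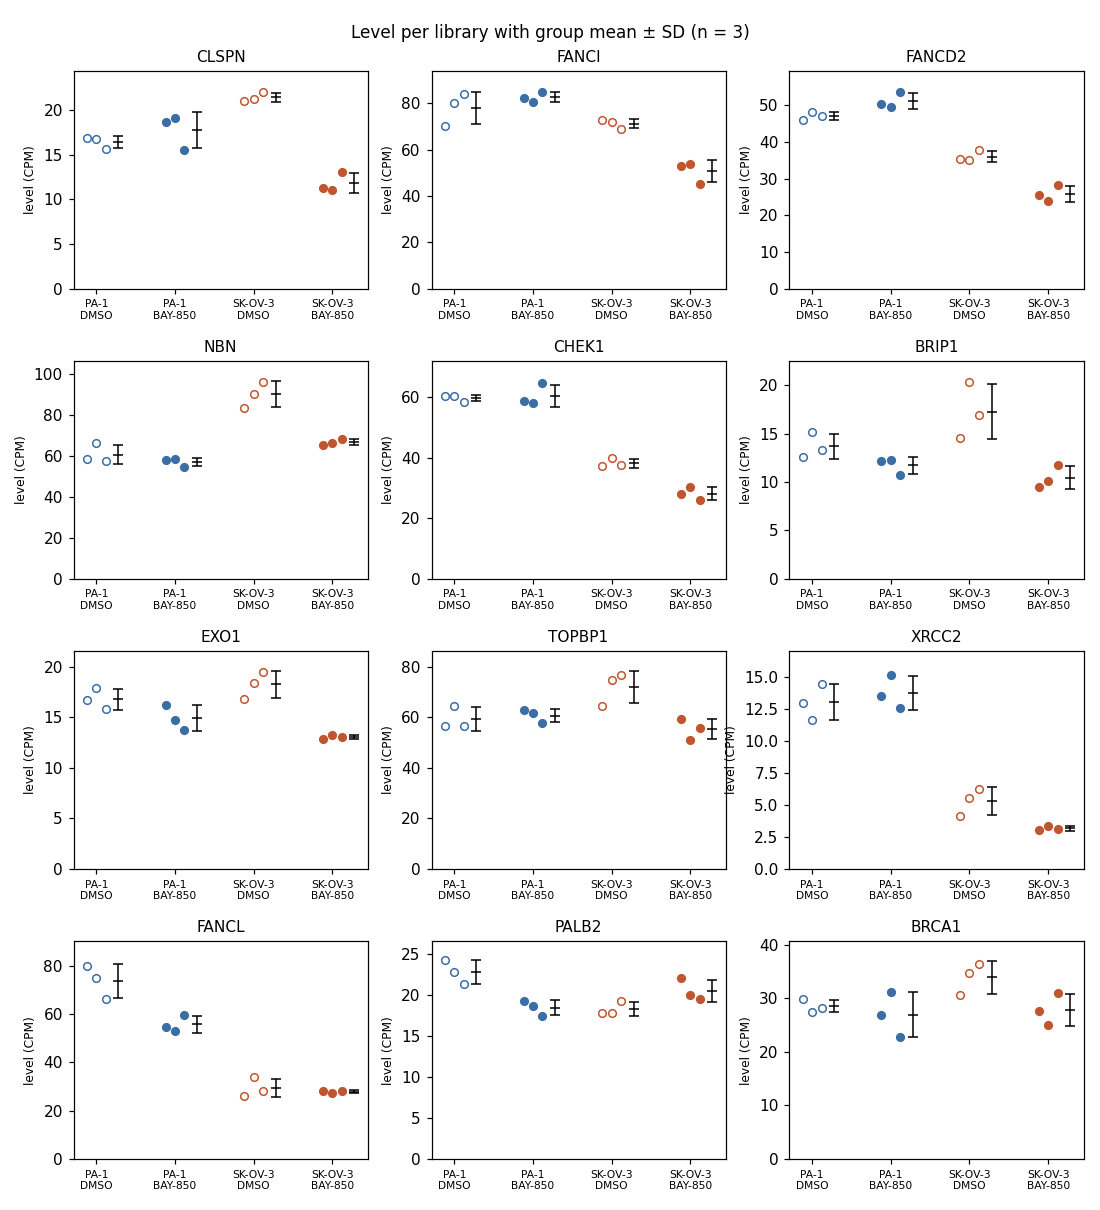
Level in CPM (y axis) of 12 of the genes in each library, with DMSO as open and BAY-850 as filled points and the group mean ± SD (n = 3) beside them. In SK-OV-3 the filled points lie below the open ones for CLSPN, FANCI, FANCD2, NBN, CHEK1, BRIP1, EXO1, TOPBP1 and XRCC2, and in PA-1 they do so for FANCL, PALB2 and BRIP1.

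Leaving out 1 library at a time separated firmer calls from weaker ones in SK-OV-3. CLSPN, FANCI, NBN, CHEK1, FANCD2, BRIP1 and EXO1 passed in all 6 of these fits, with a largest adjusted p of 0.0445 for EXO1 without DMSO replicate 3. TOPBP1 missed without DMSO replicate 2 or 3 (largest adjusted p 0.0554), and ATM missed without either of these or BAY-850 replicate 1 (0.117). XRCC2 passed only without DMSO replicate 1 or BAY-850 replicate 3 (largest adjusted p 0.164), BLM only without BAY-850 replicate 3 (0.0935), FANCA only without BAY-850 replicate 2 (0.159), and XRCC3 in none of these fits (0.136). The number of genes called lower was 7 without DMSO replicate 2 or 3 and 8 without BAY-850 replicate 1. It was 15 without BAY-850 replicate 3, the library with fewer genes detected. Over all genes tested, the share called lower was 5.02%, 5.47%, 7.05% and 11.8% in these fits, in this order, against 9.56% with all libraries. In PA-1, FANCL passed in all 6 fits (largest adjusted p 0.0406 without BAY-850 replicate 2), whereas PALB2 passed only without DMSO replicate 3 (largest adjusted p 0.145 without DMSO replicate 1). With each library's trend on GC content removed, PALB2 missed (adjusted p 0.104) and FANCL passed (adjusted p 0.0378). Fold changes in PA-1 had a Spearman correlation of 0.364 with the GC content of genes, over 14790 genes, and in SK-OV-3 0.0924 over 14891. GC content is 39.3% in the longest transcript of FANCL and 42.8% in that of PALB2. The part of this trend in the PA-1 calls of single genes was tested only by the corrected fit.

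The test of the difference between the lines, an interaction term over all 12 libraries, called 12 of the 38 genes. The response was lower in SK-OV-3 than in PA-1 for 11 and higher for 1, where 7.77% and 6.70% of 16830 genes were called. The largest difference was that of CLSPN, -0.97 ± 0.153 (SE) on the log2 scale, with an adjusted p of 0.000613. XRCC2 followed with -0.82 ± 0.235 (SE, adjusted p 0.0287), FANCD2 with -0.60 ± 0.1 (SE, adjusted p 0.00104) and FANCI with -0.57 ± 0.106 (SE, adjusted p 0.00207). The others were CHEK1 (-0.46), XRCC3 (-0.46), TOPBP1 (-0.42), FANCC (-0.48), NBN (-0.34), ATM (-0.48) and BLM (-0.44). PALB2 was the gene with the higher response in SK-OV-3, 0.47 ± 0.129 (SE), with an adjusted p of 0.0237. For BRIP1 (-0.50, adjusted p 0.106), EXO1 (-0.32, adjusted p 0.172), FANCA (-0.41, adjusted p 0.0709) and FANCL (0.32, adjusted p 0.117) the difference between the lines was not called, so a call in 1 line alone does not show that these 4 respond differently. CHEK1, CLSPN, FANCD2, FANCI and XRCC3 were called in each of the 12 fits that leave out 1 library. The count of called genes fell to 6 without PA-1 DMSO replicate 1, without PA-1 BAY-850 replicate 2 and without SK-OV-3 DMSO replicate 3. It fell to 7 without PA-1 BAY-850 replicate 1. Over all genes, the share called lower in these fits, in this order, was 6.06%, 5.57%, 5.83% and 5.81%. The share called higher was 5.22%, 4.79%, 5.34% and 4.95%.

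The 13 genes that fell in SK-OV-3 had a median GC content of 42.4%, and the other 25 had 41.9%. Their median level in SK-OV-3 with DMSO was 31.0 CPM against 16.8 CPM, and the ranges were 5.28 to 90.2 CPM and 3.09 to 153.3 CPM. The median SE of the log2 fold change was 0.0986 for the 13 and 0.11 for the 25. Of the 25 genes not called, 20 had a fold change below 0. Among genes with an entry in the RefSeq promoter set, the E2F-type letters described above stood in 6 of the 11 that fell and in 1 of the other 23, FANCC. In the 250 bases before the start alone the count was 1 in each.

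Genes of DNA replication and division moved with the 38 genes in SK-OV-3. Of 36 S phase genes of the Seurat lists, none of them among the 38, 26 fell in SK-OV-3 and none rose, with a median log2 fold change of -0.50, and in PA-1 none fell and 5 rose. Over all genes tested, 9.56% fell and 10.8% rose in SK-OV-3, and 2.48% fell and 4.65% rose in PA-1. RRM2, a subunit of ribonucleotide reductase, gave -0.84 ± 0.054 (SE, adjusted p 1.5e-06) in SK-OV-3. The helicase subunit MCM4 gave -0.65 there, and 0.29 in PA-1 with an adjusted p of 0.00609. Their summed level was 2041 to 2071 CPM with DMSO and 1468 to 1530 CPM with BAY-850 in SK-OV-3, against 2036 to 2136 CPM and 2141 to 2188 CPM in PA-1. For the G2 and M phases, with 54 genes listed, 27 fell and 1 rose in SK-OV-3 (median -0.26), and 5 fell and none rose in PA-1. Their summed level in SK-OV-3 was 5917 to 6106 CPM with DMSO and 5048 to 5078 CPM with BAY-850. The summed level of the 38 repair genes was 1053 to 1130 CPM with DMSO and 916 to 931 CPM with BAY-850 in SK-OV-3, without overlap, and 1155 to 1218 CPM against 1146 to 1171 CPM in PA-1. The part of the number of cells in S phase in the response of the 38 genes was not tested.

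**Figure D3:**
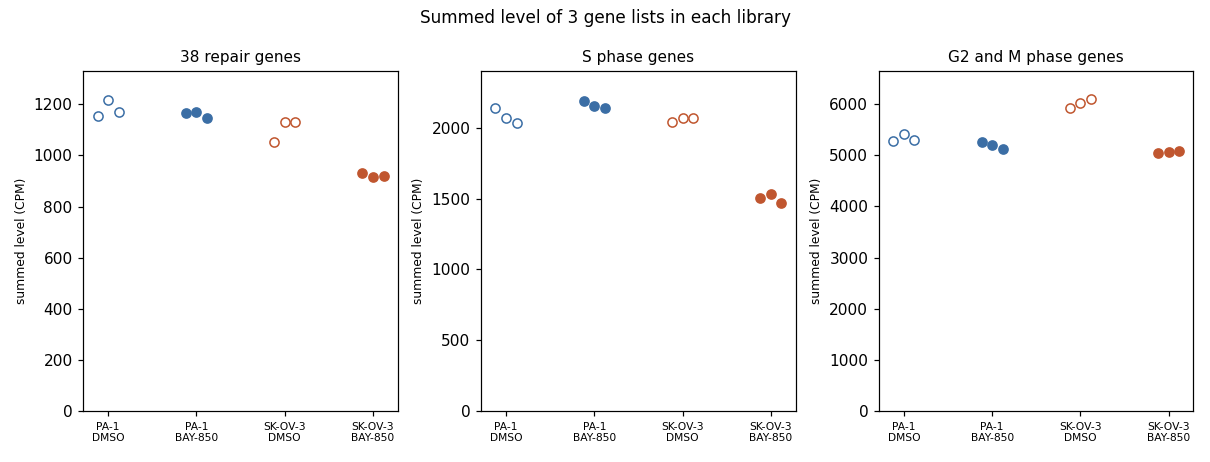
Summed level in CPM (y axis) of the 38 repair genes, 36 S phase genes and 54 genes of the G2 and M phases in each library (points, 3 per group), open for DMSO and filled for BAY-850. In SK-OV-3 all 3 sums are lower with BAY-850, and in PA-1 the S phase sum is 2141 to 2188 CPM with BAY-850 against 2036 to 2136 CPM.

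Of 54 further genes of homologous recombination and the Fanconi anaemia pathway, 4 fell and 3 rose in SK-OV-3, with a median log2 fold change of -0.11, and in PA-1 1 fell and none rose. These counts lie near or below the background shares of 9.56% lower and 10.8% higher in SK-OV-3 and 2.48% lower in PA-1. RPA2, TIPIN and USP1 are both among these 54 genes and in the S phase list. The genes that fell in SK-OV-3 were TIMELESS, which protects replication forks (-0.45, adjusted p 0.0072), the junction-cutting nuclease GEN1 (-0.45, adjusted p 0.00761), RPA1, which coats single-stranded DNA (-0.24, adjusted p 0.0219), and the helicase MCM8 (-0.32, adjusted p 0.0453). UIMC1, a ubiquitin-binding partner of BRCA1 (0.43, adjusted p 0.000446), RAD9A of the checkpoint clamp (0.53, adjusted p 0.0349) and the nuclease MUS81 (0.24, adjusted p 0.0481) rose. In PA-1 it was UBE2T, the ubiquitin-conjugating enzyme that works with FANCL, that fell, by 0.34 on the log2 scale (adjusted p 0.00516). The 12 genes of end joining, the other main route of break repair, gave 3 lower and 1 higher in each line. PRKDC, the catalytic subunit of the DNA-dependent kinase, fell in SK-OV-3 by 0.67 and rose in PA-1 by 0.34 on the log2 scale, and the interaction was -1.02 ± 0.138 (SE, adjusted p 0.000177). XRCC5 (-0.48) and XRCC6 (-0.19), which encode the Ku proteins, also fell in SK-OV-3, where APLF rose (0.64). In PA-1, APLF (-0.45), XRCC4 (-0.34) and LIG4 (-0.43) fell.

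With DMSO alone, SK-OV-3 had lower levels than PA-1 for 17 of the 38 genes and higher levels for 9. Differences of this kind were common over all 16070 genes tested, with 40.2% lower and 40.1% higher. RAD51AP1, which helps the recombinase to invade the intact strand, was lowest relative to PA-1, with 12.3, 14.07 and 14.02 CPM in SK-OV-3 against 53.7, 56.2 and 55.6 CPM. The log2 difference was -2.03 ± 0.079 (SE), with an adjusted p of 9.25e-11. CHEK2 followed with 10.3, 10.7 and 11.7 CPM against 38.8, 40.05 and 37.9 CPM, a log2 difference of -1.84 ± 0.085 (SE). FANCE (-1.40), FANCL (-1.32), XRCC2 (-1.30) and RAD52 (-1.15) were also more than 2-fold lower in SK-OV-3.

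RAD50 had the largest difference among the genes with higher levels in SK-OV-3. It had 72.9, 84.5 and 84.9 CPM in SK-OV-3 and 31.3, 33.9 and 34.3 CPM in PA-1, a log2 difference of 1.29 ± 0.076 (SE). RBBP8 (0.85), RAD51C (0.71), NBN (0.57), ATR (0.41), CLSPN (0.38), BRIP1 (0.34), TOPBP1 (0.28) and BRCA1 (0.25) were the others. Of the 7 genes of end trimming and helicases, 3 were thus higher and 3 lower in SK-OV-3, with log2 differences of -0.68 for MRE11A, the nuclease of the same complex as RAD50 and NBN, -0.80 for BLM and -0.64 for WRN. The exons of RAD50 overlap another annotated gene on the same strand over 79.7% of their bases, so the division of its reads is uncertain. RAD50 counts were not whole in 3 libraries. FANCD2 (-0.38), ATM (-0.54), CHEK1 (-0.65) and BLM (-0.80) had lower levels in SK-OV-3 before treatment and fell further with BAY-850, while CLSPN and BRIP1 had higher levels and fell below the PA-1 libraries with DMSO. With BAY-850 the BRIP1 levels of the lines overlapped, at 9.52 to 11.8 CPM in SK-OV-3 and 10.7 to 12.3 CPM in PA-1, and treated SK-OV-3 was not tested against PA-1.

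Per kilobase of exon, RBBP8 had the highest level in SK-OV-3 with DMSO, 30.1 ± 1.36 CPM per kb (SD, n = 3). NBN came next with 14.7 ± 1.04 and FANCL with 12.2 ± 1.62 CPM per kb, and TOPBP1 (9.85 ± 0.89) and FANCI (9.17 ± 0.247) followed within each other's spread. In PA-1 the order began with FANCL at 30.5 ± 2.93 CPM per kb, then RAD51AP1 at 21.6 ± 0.52 and RBBP8 at 16.7 ± 1.79. FANCI (10.0 ± 0.912) and NBN (9.87 ± 0.788) did not differ beyond their spread. BRCA2, RAD51D and FANCM were the lowest 3 in SK-OV-3, at 0.722 ± 0.144, 0.669 ± 0.133 and 0.618 ± 0.065 CPM per kb, and neighbours in this order differed by less than their SDs. The lengths are those of all annotated exons together, so a gene with many unused exons appears lower on this scale.

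**Figure D4:**
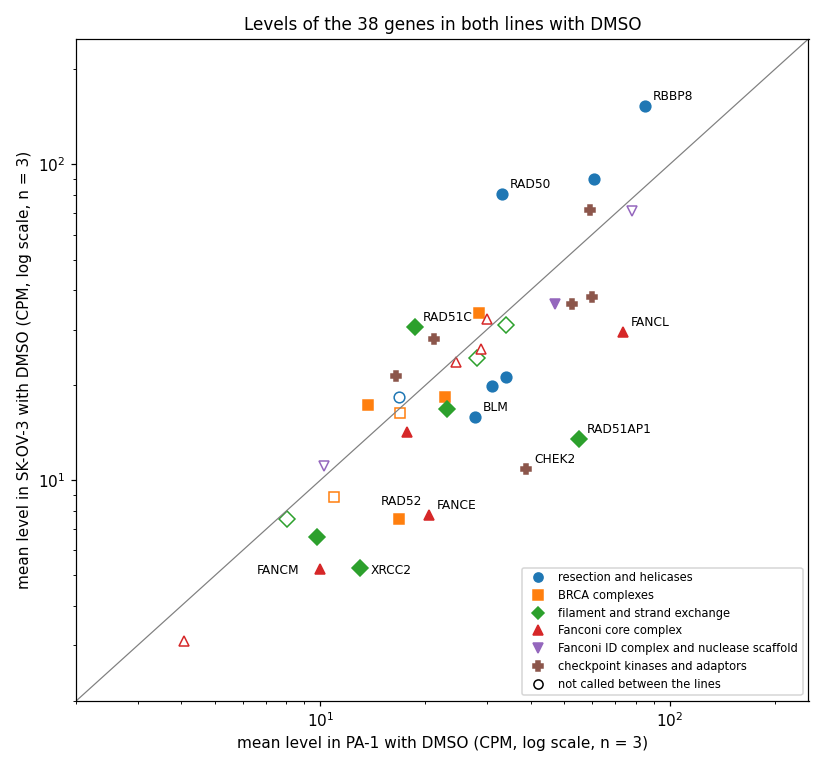
Mean level of each of the 38 genes in PA-1 (x axis) and SK-OV-3 (y axis) with DMSO, in CPM on log scales (n = 3 each), by role and filled where the lines differ with an adjusted p under 0.05. RAD51AP1, CHEK2 and FANCL lie far below the line of equal levels, and RAD50 and RBBP8 lie above it.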

How the data were processed

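The authors deposited RSEM expected counts per gene symbol for 12 libraries, with no normalization between libraries. The submitters' processing notes name Bowtie2 2.1.0, RSEM 1.2.15 and hg38, and the annotation is not given in the sources used here. Labels describe oligo-dT purification, and the series' design text describes depletion of ribosomal RNA. Counts were rounded, scaled by TMM and tested with the quasi-likelihood test of edgeR 4.0.16 (R 4.3.3) within each line, between lines with DMSO, and for the interaction over all 12 libraries, after edgeR's filter on low counts by group. The SE is the log2 fold change divided by the square root of F. Gene positions, lengths and GC content come from GENCODE v29, matched for 24659 of 26475 symbols. The GC content is that of the longest transcript of each gene. Members and gene lists were chosen with earlier results of these data known, so no list was tested as a set. Full statistics were given for members called in a line or in the interaction, plus BRCA1 and BRCA2. Promoters were given for the 6 members with the smallest p in a line and an entry in the RefSeq promoter set. The scripts were tested on simulated data. Alternatives used DESeq2 1.42.0, limma 3.58.1, other scalings and filters, GC correction, a replicate block and fits without each library. P-values measure the spread between these libraries, and replicates of a group differed by more than sampling noise.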

Additional observations from a re-analysis of the deposited data

Results flagged for a closer look

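The response to BAY-850 differed between the lines for 12 of the 38 genes by the interaction test of edgeR. The log2 fold change in SK-OV-3 minus that in PA-1 was -0.97 for CLSPN, -0.82 for XRCC2, -0.60 for FANCD2, -0.57 for FANCI, -0.48 for ATM, -0.48 for FANCC, -0.46 for CHEK1, -0.46 for XRCC3, -0.44 for BLM, -0.42 for TOPBP1 and -0.34 for NBN. It was 0.47 for PALB2, whose libraries moved in opposite directions in the 2 lines without overlap. When each of the 12 libraries was left out in turn, CHEK1, CLSPN, FANCD2, FANCI and XRCC3 passed in all 12 fits, PALB2 in 9, FANCC in 7, ATM in 6, TOPBP1 in 5, XRCC2 in 5, NBN in 4 and BLM in 2, with a largest adjusted p of 0.114 for BLM without PA-1 BAY-850 replicate 2.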

How the results depend on the processing

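Among 31 log2 fold changes of named genes, 587 values under other settings gave 482 on the same side of the threshold in the same direction, 102 that no longer passed, 2 that newly passed and 1 reversal (BRCA1 in PA-1, -0.09, which was 0.023 without BAY-850 replicate 3 and -0.20 without BAY-850 replicate 2). The 2 that newly passed were BRCA1 and BRCA2 in SK-OV-3 without BAY-850 replicate 3. In SK-OV-3, 10 of the 13 calls passed in every other setting that keeps all libraries. Genes called lower in PA-1 numbered 2, against 3 with no filter, 1 with library size only, 1 with all 12 libraries in 1 fit and 1 with GC content removed. They numbered 0 with GC content removed together with the replicate block, where FANCL missed at an adjusted p of 0.0728, and 1 to 2 without 1 library. In SK-OV-3 they numbered 13, against 7 to 15 without 1 library. The interaction called 12 genes, against 7 with library size only and 6 to 14 without 1 library. Over all genes it called 7.77% lower and 6.70% higher, against 4.59% and 6.31% with library size only. Over all genes, PA-1 gave 1085 calls, against 466 with library size only, 1737 with DESeq2, 683 with all 12 libraries, 563 with GC content removed, 408 with that and the replicate block, and 340 to 1228 without 1 library. SK-OV-3 gave 3130, against 1781 to 3902 without 1 library. The cause was not tested. The lower share of PA-1 calls was 34.8%, 49.6% with library size only and 48.1% without ribosomal RNA genes, and that of the interaction was 53.7% and 42.1% with library size only. E2F-type letters stood in 7 promoters, or in 2 with 250 bases before the start only.

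The main fits did not pair the libraries by replicate number. Deviations of same-numbered libraries from their group means correlated between -0.0841 and 0.0387. Whether same-numbered libraries share a culture day cannot be told from these values. With the replicate block, 10 members fell in SK-OV-3, 2 in PA-1, and 8 were called in the interaction. Over all genes, 8.26% fell in SK-OV-3 and 2.02% in PA-1 with this block, and the interaction called 6.3% lower and 5.32% higher. FANCB and FANCM, among the genes with the lowest levels, had an SE in SK-OV-3 of 0.273 and 0.358. The part of depth in these SEs was not tested.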
